A study of Homo sapiens with 4 samples.

Results

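The genes described here encode the core of the LIM transcription complexes, and 7 of them were examined: *ISL1*, *LMO1*, *LMO2*, *LMO3*, *LMO4*, *LDB1* and *LDB2*. Their H3K27ac peaks were taken as all peaks that overlapped the GENCODE gene body or the 50 kb on either side of it. This gave 57 peaks of 113818 in all, with 29 of 63699 in the control list and 28 of 50119 in the *SNHG1*-depletion list. Within the windows, peaks were taken by position alone.

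ISL1 is a LIM-homeodomain transcription factor: it binds DNA through its homeodomain and carries LIM domains that bind other proteins. LDB1 and LDB2 are adaptors without a DNA-binding domain, which dimerize and hold LIM proteins, and so the DNA elements to which these are bound, together. LMO1 to LMO4 consist of little more than LIM domains, bind no DNA themselves, and join LDB proteins to factors such as GATA and basic helix-loop-helix proteins. ISL1 belongs to the core regulatory circuitry of the adrenergic type of neuroblastoma, a tumor of the sympathetic lineage, and *LMO1* is known as a neuroblastoma oncogene. Acetylation of lysine 27 of histone H3 (H3K27ac) marks active promoters and enhancers.

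H3K27ac ChIP-seq was carried out on SK-N-BE(2)C, an adrenergic, *MYCN*-amplified neuroblastoma cell line. The sgCtrl group held 2 samples of a clone given a non-targeting control gRNA and labelled wildtype. The sgSNHG1 group held 2 samples of cells given Cas9 with paired gRNAs against the long noncoding RNA gene *SNHG1*, labelled as a knockout and called *SNHG1*-depletion cells here. The labels give the same handling for all samples, with transfection, puromycin selection and growth from sorted single cells, and do not say which depletion clone each sample came from. The 2 ChIP experiments of a group had been merged into 1 peak list before deposit. No value per sample was therefore at hand, no test on replicates could be made, and the effects of the gRNAs, of the clone and of the library cannot be told apart in any comparison below.

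*SNHG1*, the targeted gene, carried 1 peak in the sgCtrl list, with a fold enrichment of 3.44, and 0 peaks in the sgSNHG1 list. As 38.5% of all sgCtrl peaks have no overlapping sgSNHG1 peak, this checks the labels only weakly. Promoter peaks, within 3 kb of a start site, stood at 9 of 9 adrenergic markers in both lists, and the summit at *MYCN* lay on a local background of 2519 and 2035 fragments against a median of 12.9 and 12.1 over all peaks. Of 5 genes of other lineages (*PTPRC*, *CD3E*, *ALB*, *KRT5* and *PECAM1*), 0 had a promoter peak in either list, and 5 of 6 mesenchymal markers had one in both, all but *PRRX1*. Over all protein-coding genes, 70.5% and 68.8% had a promoter peak, so the counts set the cells apart from other lineages more than they separate adrenergic from mesenchymal markers. The number of reads per sample is unknown. The lowest local background was 4.89 fragments in sgCtrl, at 12.4% of its peaks, and 4.66 in sgSNHG1, at 11.2%.

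Peak numbers ran from 0 to 13 over the 7 genes in sgCtrl, a wider range than the change of any gene between the lists. *LMO1* held the most peaks, 13 in sgCtrl and 11 in sgSNHG1, followed by *LDB1* with 7 and 6, *ISL1* with 4 and 4 and *LMO4* with 3 and 3. *LMO2* had 1 peak in each list, *LDB2* 1 and 3, and *LMO3* had 0 in both. Per 100 kb of window, which allows for the different lengths of the genes, the sgCtrl list held 9.00 peaks at *LMO1*, 6.15 at *LDB1*, 3.59 at *ISL1* and 2.50 at *LMO4*. *LMO2* followed with 0.749 and *LDB2*, a gene of 397 kb, with 0.201. The window of *LMO1* was thus among the denser ones, at percentile 80.2 of 20007 protein-coding genes, *LDB1* stood at percentile 68.6, *ISL1* at 53.0 and *LMO4* at 42.8. *LMO2*, *LDB2* and *LMO3* were at percentiles 18.3, 12.5 and 6.06. An empty window such as that of *LMO3* was found at 10.4% of protein-coding genes in both lists.

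**Figure D1:**
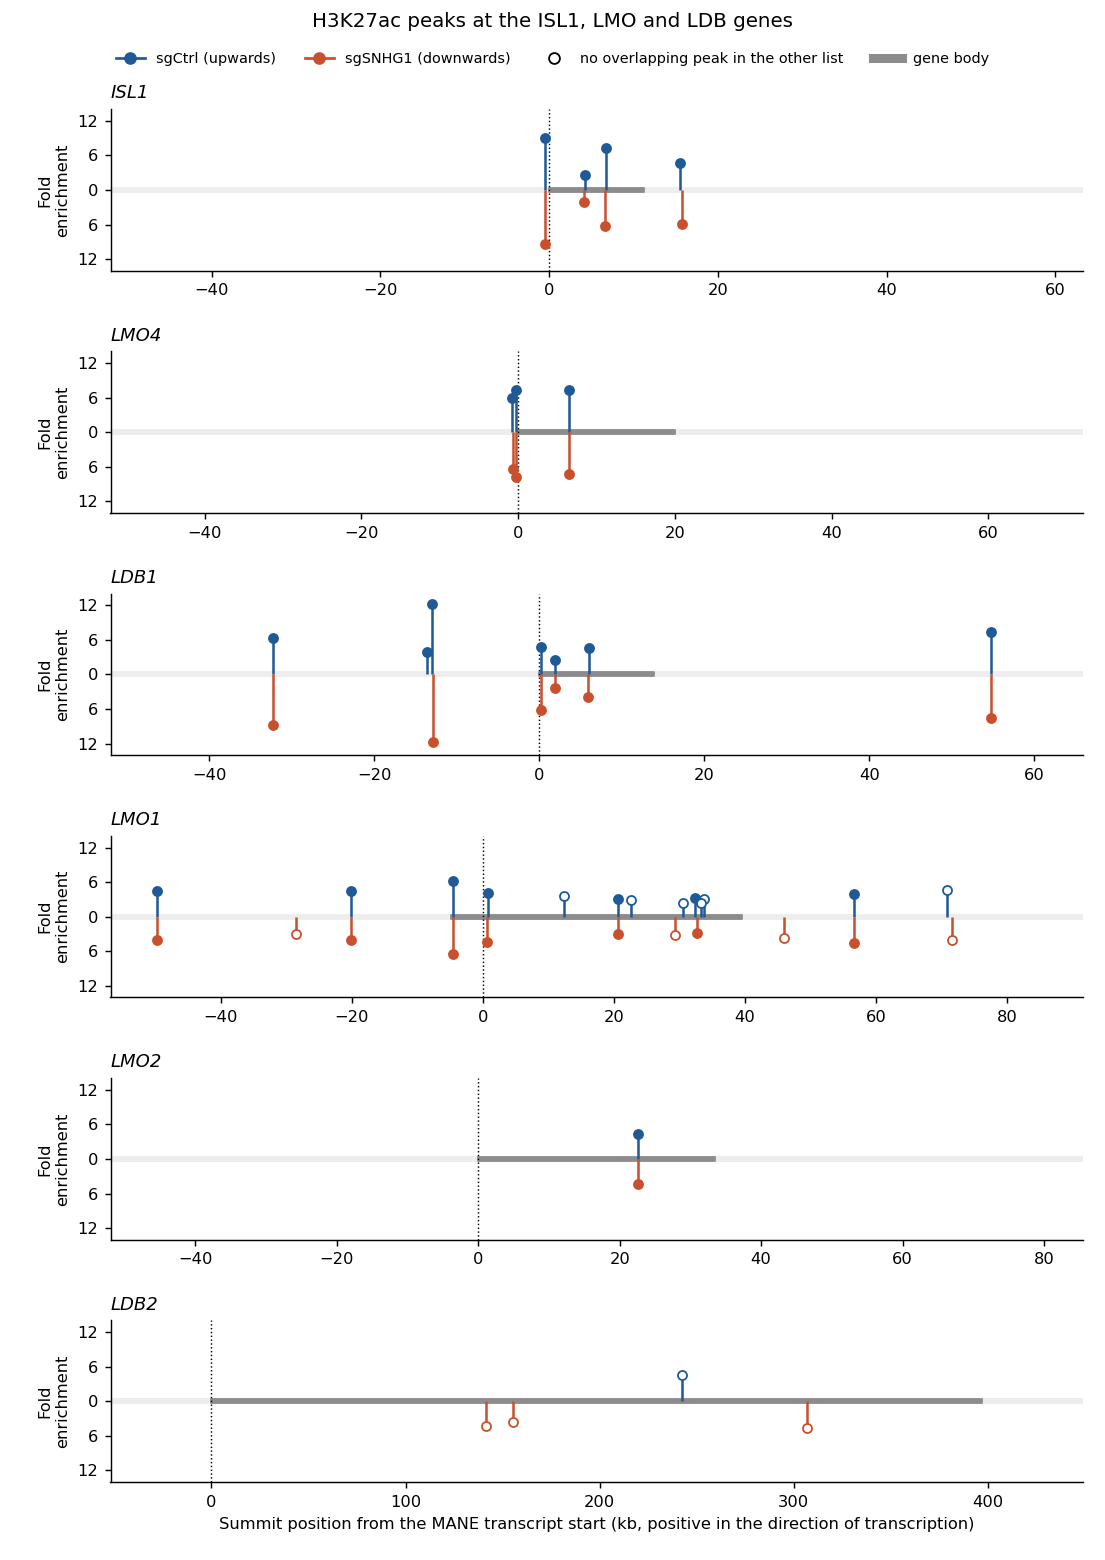
Each stem is a peak of the pooled lists, with the distance of its summit from the MANE transcript start in kb on the x axis and its fold enrichment on the y axis (sgCtrl upwards, sgSNHG1 downwards). Open symbols are peaks without an overlapping peak in the other list, and they appear at LMO1 and LDB2 only, where they number 7 in each list, while the highest stem is the PPRC1 promoter in the window of LDB1, at 12.3 and 11.7.

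Sequences under the peaks show how the genes differ. The peak upstream of *ISL1* and the one at the start of *LMO4* lay in CpG-dense sequence, as did the start of *LDB1*, whereas no peak stood at the start of *LMO3* or *LMO2*. In the following stretches, read from GRCh38 on the strand of the gene, capitals mark each CpG. The *ISL1* and *LMO4* stretches are 300 bases around the sgCtrl summits. That of *LDB1* is the 250 bases before the start of the MANE transcript, the representative one, and that of *LMO3* is the 250 bases before a RefSeq start (GRCh38.p14).

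ISL1 chr5:51382789-51383088: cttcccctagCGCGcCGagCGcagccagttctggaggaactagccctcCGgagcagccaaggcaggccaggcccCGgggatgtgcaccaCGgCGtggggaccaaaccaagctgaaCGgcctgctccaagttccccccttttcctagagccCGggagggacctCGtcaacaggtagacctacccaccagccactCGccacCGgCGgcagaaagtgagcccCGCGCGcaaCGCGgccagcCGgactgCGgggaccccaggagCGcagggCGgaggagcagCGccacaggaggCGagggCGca
LMO4 chr1:87328490-87328789: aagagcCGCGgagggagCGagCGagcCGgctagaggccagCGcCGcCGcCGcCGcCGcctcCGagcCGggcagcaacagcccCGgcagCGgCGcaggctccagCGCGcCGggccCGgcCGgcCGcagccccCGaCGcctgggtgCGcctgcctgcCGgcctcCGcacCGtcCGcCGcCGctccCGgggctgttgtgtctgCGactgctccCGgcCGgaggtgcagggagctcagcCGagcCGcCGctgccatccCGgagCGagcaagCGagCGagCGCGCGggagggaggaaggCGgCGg
LDB1 chr10:102120369-102120618: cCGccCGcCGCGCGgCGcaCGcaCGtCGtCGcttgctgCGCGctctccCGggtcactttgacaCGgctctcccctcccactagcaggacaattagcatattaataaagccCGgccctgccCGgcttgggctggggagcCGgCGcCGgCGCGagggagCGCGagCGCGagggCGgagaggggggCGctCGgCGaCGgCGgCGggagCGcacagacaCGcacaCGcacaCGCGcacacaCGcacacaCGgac
LMO3 chr12:16608215-16608464: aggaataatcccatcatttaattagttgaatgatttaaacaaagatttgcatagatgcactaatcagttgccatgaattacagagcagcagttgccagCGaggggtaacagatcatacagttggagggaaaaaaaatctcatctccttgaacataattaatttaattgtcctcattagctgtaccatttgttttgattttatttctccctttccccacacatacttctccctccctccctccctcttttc

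The *ISL1*, *LMO4* and *LDB1* stretches hold 26, 47 and 39 CpG and the *LMO3* stretch 1. The windows are not alike, and the counts vary between the starts of a gene: the 250 bases before the RefSeq start of *LDB1*, an internal one, hold 10 CpG. For the 5 RefSeq starts of *LMO3* the counts run from 1 to 13, with 9 at the MANE start, and the stretch shown is the sole one of them clear of annotated untranslated regions. Over 1 kb around the MANE starts, the GC content was 72.9% at *LDB1*, 68.7% at *LMO4* and 61.8% at *ISL1*, and between 51.0% and 51.7% at *LMO1*, *LMO2*, *LMO3* and *LDB2*. In the sgCtrl list a peak lay within 3 kb of the 3 GC-rich starts and of that of *LMO1*, and of none of the other 3. Among 2023 MANE starts of protein-coding genes with a GC content of 50 to 55%, 46.0% had a peak in the sgCtrl list, compared with 88.8% of 6828 starts at 65% or more. Starts of the GC content of *LMO2*, *LMO3* and *LDB2* are therefore often without a peak in these lists, and the absence at these 3 genes is not particular to them.

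Between the groups, the windows as a whole changed little. Peak number went from 29 in sgCtrl to 28 in sgSNHG1, a ratio of 0.966, and the covered length from 15756 to 16315 bp, a ratio of 1.04. Over all peaks the same ratios were 0.787 and 0.768, since the sgSNHG1 list is the shorter one. Fewer peaks in sgSNHG1 were found at 57.5% of the 17925 protein-coding gene windows with a peak and more peaks at 18.6%. Here, 2 of the 6 genes with a peak had fewer (*LMO1* and *LDB1*) and 1 had more (*LDB2*), too few genes to set against these shares. Lists of equal size, made by keeping the 50119 sgCtrl peaks with the smallest p-values, gave 27 and 28 member peaks.

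An overlapping peak in the other list was present for 22 of 29 sgCtrl peaks (75.9%, 95% Wilson interval 57.9 to 87.8%) and for 21 of 28 sgSNHG1 peaks (75%, 56.6 to 87.3%). The shares without a partner over all peaks were 38.5% in sgCtrl and 20.8% in sgSNHG1, so that both shares here, 7 of 29 and 7 of 28, were within counting error of the background. All 14 peaks without a partner lay at *LMO1* or *LDB2*. The windows of *ISL1*, *LMO2*, *LMO4* and *LDB1* held the same sites in both lists.

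To compare heights, the number of fragments over each summit (the pileup) was recovered from the deposited fold enrichment and p-value, which gave a whole number for every one of the 57 peaks. For 21 pairs of shared peaks, the log2 ratio of the pileups, sgSNHG1 over sgCtrl, was expressed relative to the median of all 38584 shared pairs, which was −0.20. On this scale the pairs had a median of 0.14 and ranged from −0.45 to 0.97, with 16 above 0 and 5 below. That split depended on the centring, as 7 of the 21 were above 0 without any centring and 12 when set against the surroundings within 10 Mb, on the scale of fold enrichment, or against the lowest background of each list. All shared promoter pairs had the same median, 0.14, and of the pairs here 10 lay at the genes' own start sites and 3 at promoters of other genes. A ratio past 1.5-fold was found in the upward direction for 4 pairs and in the downward direction for 0, against a background of 8.79% higher and 5.57% lower over all pairs and of 13.4% higher over promoter pairs. With 21 pairs these counts are a description, and nothing particular to the genes is read from them. They also rested on the scale, as 2 pairs were past 1.5-fold upward and 0 downward when promoters were compared with promoters, 1 upward and 1 downward (in intron 1 of *LMO1*) without centring, and 0 in either direction when fold enrichment replaced the pileup.

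**Figure D2:**
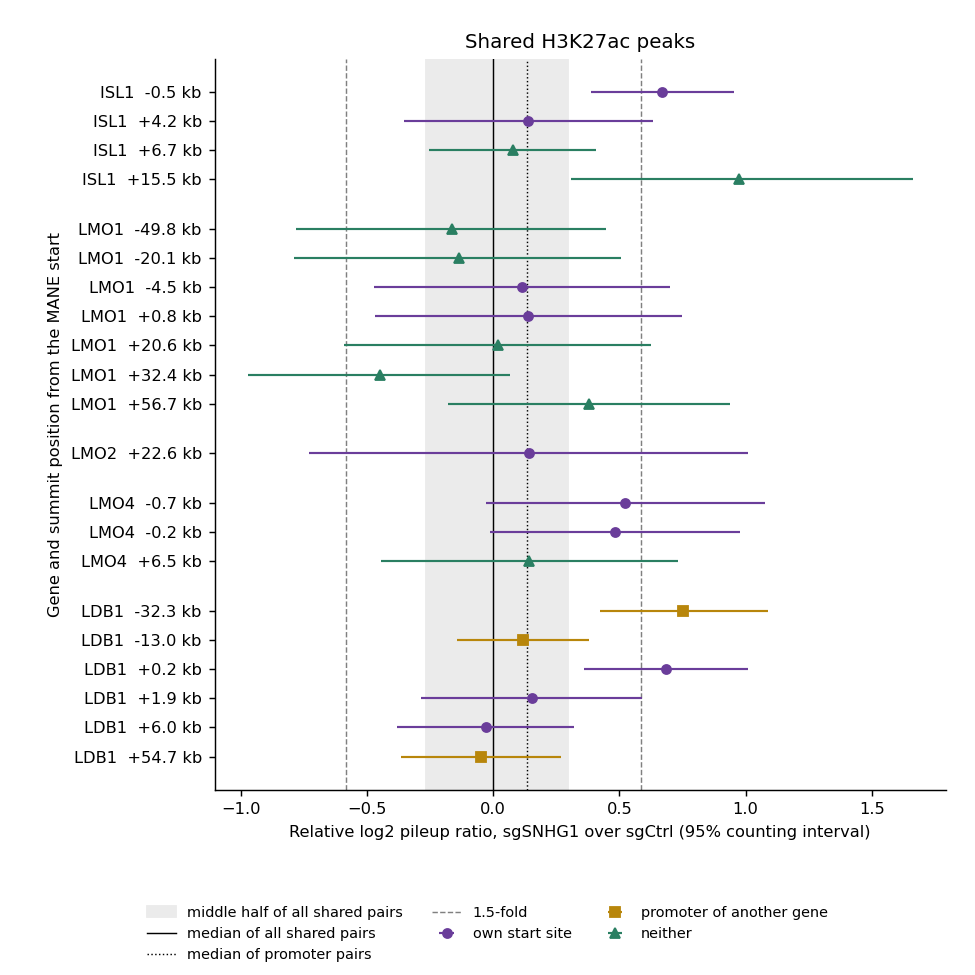
The relative log2 pileup ratio of the 21 shared pairs (sgSNHG1 over sgCtrl, x axis) is drawn by gene and by summit position (y axis), with 95% intervals for counting error only. The shaded band runs from the lower to the upper quartile of all shared pairs (−0.27 to 0.29), the dotted line is the promoter median of 0.14, and 4 points, 2 at ISL1 and 2 in the window of LDB1, lie to the right of the 1.5-fold line.

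*ISL1*, the DNA-binding member of the group and the one that belongs to the core circuitry, lies on chromosome 5 from 51383448 to 51394730 on the plus strand. It had 4 sites, all in or close to the gene, and beyond its window the next peak was 224 kb away in both lists. The highest was 509 bp upstream of the start (chr5:51382656-51383215 in sgCtrl), with a fold enrichment of 8.97 in sgCtrl and 9.43 in sgSNHG1, at percentiles 93.7 and 93.3 of each list. This was the highest peak at a start site among the 7 genes in both lists. The pileup there was 179 fragments in sgCtrl (95% Poisson interval 154 to 207) and 248 in sgSNHG1 (218 to 281), a relative log2 ratio of 0.67 (0.39 to 0.96), or 1.59-fold. The local background also differed, at 19.1 fragments in sgCtrl and 25.4 in sgSNHG1, and the relative ratio of the fold enrichments was 0.11. Compared with promoter pairs only, the pileup ratio was 0.53, and it was 0.55 when set against 95 shared pairs on chromosome 5 within 10 Mb of the window, both short of 1.5-fold. More fragments were thus counted over the *ISL1* promoter in the depletion list by every scaling of the pileup, while the size of the difference depended on the scaling. The direction at this peak is opposite to that in the paper, which reports lower H3K27ac at the circuitry genes after depletion, not significant for some. Its discussion describes the H3K27ac-marked enhancer activity of these genes as without significant change. Lower *ISL1* RNA is reported there as well. The paper counted reads over peaks in each replicate, a measure unlike 1 summit of a merged list, and the reason for the difference was not tested.

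The other sites of *ISL1* lie within the gene and downstream of it. In intron 4, at 6.69 kb from the start, the fold enrichment was 7.35 in sgCtrl and 6.23 in sgSNHG1, with 161 and 148 fragments. A weaker peak in exon 3 had 73 and 70 fragments. The relative ratios, 0.08 (−0.25 to 0.41) and 0.14 (−0.36 to 0.63), did not separate from 0. The site downstream of the gene, 15.5 kb from the start in sgCtrl, had the largest ratio of the 21 pairs: 31 fragments in sgCtrl (21.1 to 44) and 53 in sgSNHG1 (39.7 to 69.3), with a fold enrichment of 4.68 and 5.90. The relative log2 ratio was 0.97 (0.31 to 1.66), and 1.07 relative to pairs away from promoters, but 0.37 on the scale of fold enrichment, with a local background of 5.83 and 8.15. In sgSNHG1 the summit lay at 15.8 kb, so this ratio compares fragments at different positions of overlapping peaks. All 4 pairs of *ISL1* were above 0, with a median of 0.40, but 2 of the 4 were below 0 on the scale of fold enrichment and without centring, and the intron 4 pair was also below 0 against its surroundings within 10 Mb.

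The following *ISL1* sites, on the plus strand, are the higher pair away from the promoter, and each holds a motif that LIM-homeodomain factors or their partners are known to read. The first is centered on the sgCtrl summit in intron 4, and its capitals mark the E-box CAGCTG, a site of basic helix-loop-helix proteins. The second is centered on the sgSNHG1 summit downstream of the gene, and its capitals mark TTATCT, which is the GATA site AGATAA on the other strand, and the homeodomain site TAATGG. In sgCtrl the summit of this site lay at 15.5 kb rather than 15.8 kb. The window around it holds a different TAATGG match, on the other strand, and no AGATAA.

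ISL1 chr5:51389992-51390291: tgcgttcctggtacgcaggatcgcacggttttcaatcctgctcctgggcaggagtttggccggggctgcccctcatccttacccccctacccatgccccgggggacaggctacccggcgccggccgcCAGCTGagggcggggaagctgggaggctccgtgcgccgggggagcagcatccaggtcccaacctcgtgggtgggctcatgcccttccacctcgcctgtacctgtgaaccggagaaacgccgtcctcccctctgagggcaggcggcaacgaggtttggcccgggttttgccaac
ISL1 chr5:51399102-51399401: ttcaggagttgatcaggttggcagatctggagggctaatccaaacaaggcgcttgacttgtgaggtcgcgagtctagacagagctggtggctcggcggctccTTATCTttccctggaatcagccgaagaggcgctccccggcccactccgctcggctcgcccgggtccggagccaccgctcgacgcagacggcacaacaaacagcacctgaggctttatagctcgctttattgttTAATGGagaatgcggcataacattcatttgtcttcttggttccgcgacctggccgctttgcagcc

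These letters are a description of the windows and do not show that a factor was bound. Of all 300-bp summit windows, 27.8% in sgCtrl and 25.9% in sgSNHG1 held CAGCTG on either strand, 2.54% and 2.88% AGATAA, and 2.58% and 2.93% TAATGG. At the 7 genes CAGCTG was in 8 of 29 and 8 of 28 windows, AGATAA in 1 and 1, and TAATGG in 1 and 1. Both TAATGG windows were at the downstream *ISL1* site, but they do not overlap, so the matches are different ones. The homeodomain site TAATTA was in 0 of 29 and 1 of 28 windows (0.636% and 0.76% of all), and the E-box CATCTG in 5 and 3 (17.6% and 16.3% of all). The median GC content of the windows, 63.7% and 65.3%, was close to that of all windows, 64.0% and 64.3%.

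**Figure D3:**
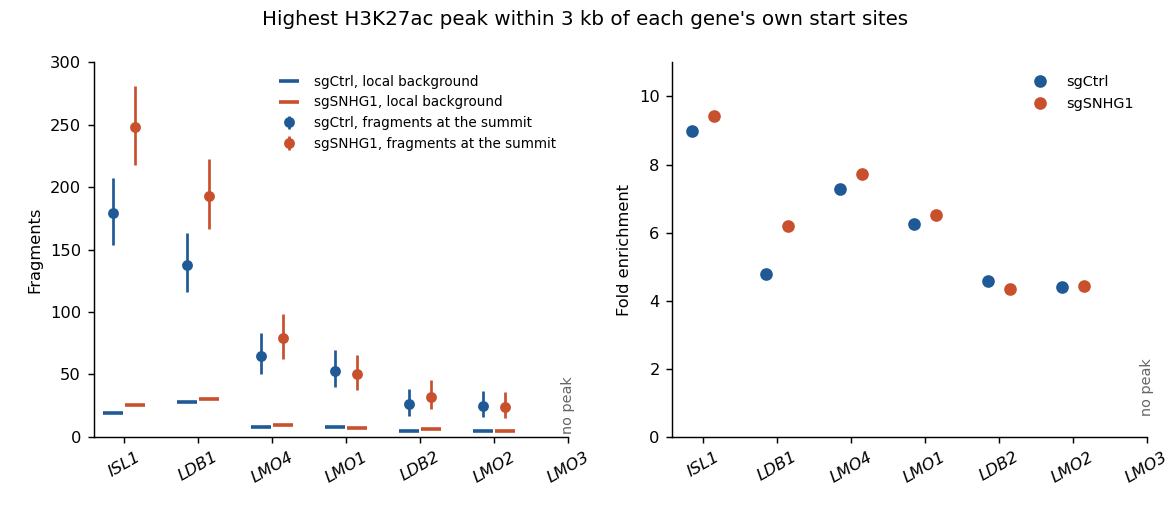
For each gene the highest peak within 3 kb of any of its own annotated start sites is shown in the sgCtrl and sgSNHG1 lists. The left panel gives the fragments over the summit with 95% Poisson intervals and the local background as dashes, and the right panel gives the fold enrichment. ISL1 is highest on both scales (179 and 248 fragments), LDB1 is second in fragments on a raised background, and LMO3 has no peak.

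*LDB1*, the adaptor of the complex, lies on chromosome 10 from 102106489 to 102120368 on the minus strand, in a cluster of active promoters. Its own start carried a peak in exon 1 (chr10:102119920-102120483 in sgCtrl) with a fold enrichment of 4.78 in sgCtrl and 6.19 in sgSNHG1. The pileup was 138 fragments (116 to 163) and 193 fragments (167 to 222) on a background of 28.1 and 30.3. The relative log2 ratio of 0.68 (0.36 to 1.01) was close to that at the *ISL1* promoter. It was 0.55 relative to promoter pairs and 0.41 on the scale of fold enrichment, so that here, too, the difference passed 1.5-fold only on the main scale, and the interval stayed above 0. A second, internal start at 6.04 kb had 150 fragments in sgCtrl and 128 in sgSNHG1, a ratio of −0.03 (−0.38 to 0.32), and a site in intron 1 at 1.93 kb had 92 and 89 fragments, a ratio of 0.15. The higher ratio at the main start was thus not shared by the internal one, whose interval lay wholly below that of the main start.

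The other 4 sgCtrl peaks in the *LDB1* window were promoters of neighboring genes. The highest peak of all 57, at *PPRC1*, a coactivator of mitochondrial gene expression, had a fold enrichment of 12.3 and 11.7 and 252 and 238 fragments, a ratio of 0.12. A second *PPRC1* peak of 79 fragments in sgCtrl was part of one wider peak in sgSNHG1, which accounts for the count of 7 and 6 in this window. *NOLC1*, which encodes a nucleolar phosphoprotein, went from 128 to 188 fragments with a ratio of 0.75 (0.42 to 1.09), which was 0.62 relative to promoter pairs but 0.55 without centring and 0.51 on the scale of fold enrichment, both short of 1.5-fold. At *HPS6*, a subunit of a complex for lysosome-related organelles, 184 and 155 fragments gave a ratio of −0.05. Covered length in the window went from 5231 to 6660 bp. Of the 3 neighboring promoters, 1 was thus past 1.5-fold on the main scale, like that of *LDB1*.

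*LDB2*, the paralog of *LDB1*, had none of its promoter signal. The gene spans 397 kb of chromosome 4, from 16501541 to 16898678 on the minus strand, and no peak lay at its MANE start: the nearest was 242 kb away in sgCtrl and 141 kb in sgSNHG1. The sgCtrl list had 1 intronic peak of 26 fragments and the sgSNHG1 list 3 intronic peaks of 19, 25 and 32 fragments, none at the same place. Of these 4, 3 stood on the lowest background of their list, and their fold enrichments ran from 3.53 to 4.60. Pileups this small lie near the limit of calling, and the ratio of 3 peaks to 1 rests on counts too low to show a difference. A pair of them, 1 in each list, lay within 3 kb of internal starts of minor transcripts. The sgSNHG1 peak in intron 3 is shown on the minus strand, because it is the one window of the 57 with the homeodomain site TAATTA, in capitals.

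LDB2 chr4:16591414-16591713: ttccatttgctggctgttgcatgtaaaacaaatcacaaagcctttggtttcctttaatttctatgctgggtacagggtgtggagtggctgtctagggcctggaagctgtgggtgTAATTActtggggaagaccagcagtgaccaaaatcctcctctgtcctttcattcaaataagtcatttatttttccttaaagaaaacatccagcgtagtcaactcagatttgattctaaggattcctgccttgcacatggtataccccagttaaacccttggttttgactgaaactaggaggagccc

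*LMO1* was the richest locus in peaks and held most of those without a partner, 6 of 7 in sgCtrl and 4 of 7 in sgSNHG1. The gene lies on chromosome 11 from 8224309 to 8268716 on the minus strand. It has 4 annotated start sites, among them the MANE start and one further upstream. In both lists a peak stood at the upstream start. Another began 473 bp (sgCtrl) and 463 bp (sgSNHG1) downstream of the MANE start, which no peak covered. At the upstream start, at −4.53 kb, the fold enrichment was 6.27 in sgCtrl and 6.50 in sgSNHG1, with 53 and 50 fragments and a ratio of 0.12 (−0.47 to 0.70). Downstream of the MANE start, in intron 1 at 0.771 kb, 49 and 47 fragments gave a ratio of 0.14 (−0.47 to 0.75). This summit lay closer to a further annotated start, at 281 bp in sgCtrl and 95 bp in sgSNHG1. Both peaks thus had near-equal values in the lists, within wide intervals.

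Most of the remaining *LMO1* peaks lay in intron 1 and in the flanks. In sgCtrl, 4 peaks between 30.5 and 33.8 kb from the MANE start formed a cluster, with 61, 83, 59 and 75 fragments on a local background of 24.2 to 25.2. In sgSNHG1, 2 peaks lay in or next to this stretch, at 29.3 and 32.7 kb, with 62 and 53 fragments on a background of 19.2 and 18.7. The intronic stretch thus had fewer peaks and a lower local background in the depletion list. Of the cluster, only the peak at 32.4 kb was shared, and it had the lowest ratio of the 21 pairs, −0.45 (−0.97 to 0.07), which was −0.21 on the scale of fold enrichment and −0.65 without centring. Its partner in sgSNHG1 had its summit at 32.7 kb, so this ratio compares fragments at different positions of partly overlapping peaks. Covered length over the whole window went from 5458 to 3662 bp, a ratio of 0.671, against 0.768 for all peaks.

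The 6 *LMO1* peaks found only in sgCtrl had −log10 p-values of 9.07 to 16.5, the highest of them at 33.8 kb. This range was set by these peaks themselves, and 16771 of the 29914 sgCtrl peaks within it (56.1%) had no partner. Weak peaks are thus commonly seen in one list alone. At *LMO1*, the shared peak at 20.6 kb was the only other sgCtrl peak in the range. The share therefore cannot show whether *LMO1* has an unusual number of peaks without a partner. The 4 found only in sgSNHG1 had 26, 31, 37 and 62 fragments, and the one at 29.3 kb had the smallest p-value, with a −log10 p of 14.6. With lists of equal size, *LMO1* had 11 peaks in each. The other shared sites moved in both directions without an interval that left 0: 0.38 at 56.7 kb (53 and 60 fragments), 0.02 at 20.6 kb (51 and 45), −0.14 at −20.1 kb (48 and 38) and −0.16 at −49.8 kb (54 and 42). The site at −20.1 kb is shown on the minus strand as a distal *LMO1* element present in both lists with both E-box forms, CATCTG and CAGCTG in capitals, while the 300 bases at the intron 1 start-site peak have every CpG in capitals, 40 in all.

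LMO1 chr11:8283841-8284140: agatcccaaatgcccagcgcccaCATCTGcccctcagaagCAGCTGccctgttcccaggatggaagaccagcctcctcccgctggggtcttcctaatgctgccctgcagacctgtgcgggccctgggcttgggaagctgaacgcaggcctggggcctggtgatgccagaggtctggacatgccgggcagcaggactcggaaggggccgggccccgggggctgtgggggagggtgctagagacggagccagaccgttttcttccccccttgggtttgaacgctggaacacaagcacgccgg
LMO1 chr11:8262957-8263256: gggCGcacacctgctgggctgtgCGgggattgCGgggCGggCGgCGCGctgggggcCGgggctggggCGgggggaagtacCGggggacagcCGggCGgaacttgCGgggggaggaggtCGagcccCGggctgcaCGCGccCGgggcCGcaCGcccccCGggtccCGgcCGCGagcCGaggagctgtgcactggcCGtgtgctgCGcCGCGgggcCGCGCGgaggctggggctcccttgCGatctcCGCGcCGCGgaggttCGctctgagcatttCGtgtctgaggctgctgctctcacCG

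*LMO4*, a broadly expressed LMO gene, had a compact pattern at its start on chromosome 1 (87328880 to 87348923, plus strand). The peak 240 bp upstream (chr1:87328523-87329462 in sgCtrl) had a fold enrichment of 7.27 in sgCtrl and 7.74 in sgSNHG1, with 65 and 79 fragments and a ratio of 0.48 (−0.01 to 0.98). A neighboring peak at −0.734 kb had 52 and 65 fragments, a ratio of 0.52 (−0.03 to 1.08), and the site in intron 2 at 6.47 kb had 52 and 50, a ratio of 0.14. Both start-site values pointed upward, yet their intervals reached 0 and neither passed 1.5-fold. Against 138 shared pairs of chromosome 1 within 10 Mb, which themselves had a median of 0.19, the ratios at the start were 0.29 and 0.33.

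*LMO2*, which in blood progenitors bridges LDB1 with TAL1 and GATA factors, had a sole peak in each list on chromosome 11, in exon 4 of a gene that runs from 33858576 to 33892076 on the minus strand. It lay at an internal start, 22.6 kb from the MANE start, with 25 fragments in sgCtrl and 24 in sgSNHG1 and a fold enrichment of 4.41 and 4.42. The background was the lowest of each list, and the ratio of 0.14 (−0.73 to 1.01) is too wide to show a difference. *LMO3*, an LMO gene of the nervous system on chromosome 12 (16548372 to 16610594), had 0 peaks. The peak nearest to its MANE start was 401 kb away in sgCtrl and 548 kb in sgSNHG1, and 0 of 57 peaks bear on this gene. Within the limits of peak calling at this depth, H3K27ac was not detectable there in either group.

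The other genes of the pathway set these values in context. Of 11 further LIM-homeodomain genes, 6 had a promoter peak in sgCtrl and 6 in sgSNHG1, 4 of them in both, a share of 54.5% in each list. Over all protein-coding genes the shares were 70.5% and 68.8%. *ISL2* and *LHX6* had one in sgCtrl only (28 and 20 fragments), and *LHX1* and *LHX4* in sgSNHG1 only (33 and 33 fragments). *LHX5*, *LHX9* and *LMX1B* had one in neither. Of all 20007 protein-coding genes, 974 had one in sgCtrl only and 625 in sgSNHG1 only. With 11 genes and pileups this low, nothing particular to the family is read from these counts. The highest sgCtrl value among them, 5.26 at *LHX8*, with 30 fragments, was below that at the *ISL1* promoter, and the 3 genes with a shared pair had ratios of −0.07 to 0.04. *ISL1* was the LIM-homeodomain gene with the highest promoter peak in both lists.

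Of 16 partners of the complex, 15 had a promoter peak in both lists and *TAL2* had none. The highest in sgCtrl were *RLIM*, a ubiquitin ligase that targets LDB and LIM proteins, at 12.7, *TCF12*, an E protein, at 12.5, and *SSBP2*, which stabilizes LDB1, at 10.4. Their 15 pairs had a median ratio of 0.15, near the promoter median. *RLIM* (0.70, 87 and 123 fragments) and *HAND1* (0.59, 121 and 159) were past 1.5-fold upward on the main scale, but at 0.56 and 0.46 not relative to promoter pairs. *HAND2* (−0.95, −1.27 to −0.64), a circuitry gene with 273 and 123 fragments, was past it downward, and was at −1.09 relative to promoter pairs. *LYL1* (−0.51, −0.998 to −0.040), with 100 and 61 fragments, was not past it on the main scale. At −0.65 relative to promoter pairs, *LYL1* was past it downward there. *GATA3* had 289 and 280 fragments, a ratio of 0.15 (−0.09 to 0.40). The lists therefore gave *ISL1* and *HAND2*, both circuitry genes, pileup ratios on opposite sides of 0. Their intervals did not overlap but cover counting error only, and the *ISL1* ratio was 0.11 on the scale of fold enrichment. Among further circuitry genes, *MYCN* had a ratio of −0.16 (−0.19 to −0.12) and *TBX2* 0.26 (0.02 to 0.49).

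**Figure D4:**
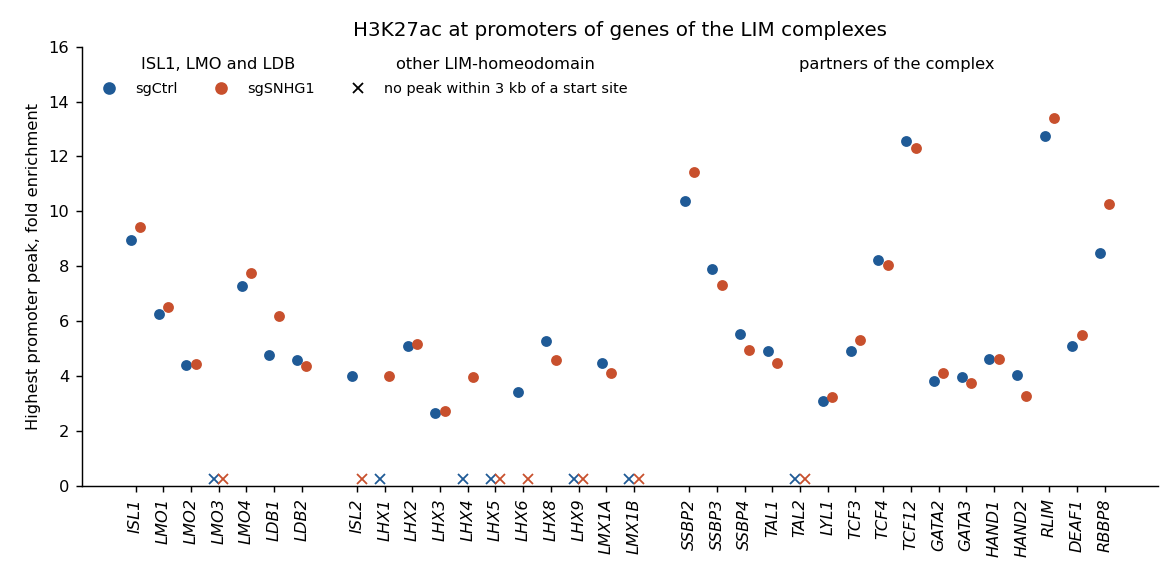
The fold enrichment of the highest peak within 3 kb of a start site is shown for the 7 genes, 11 further LIM-homeodomain genes and 16 partners, in sgCtrl and sgSNHG1, and a cross marks a promoter without a peak. The partner genes RLIM, TCF12 and SSBP2 are highest at 12.7, 12.5 and 10.4 in sgCtrl, the further LIM-homeodomain genes stay at or below 5.26, and LMO3 has a cross in both lists.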

How the data were processed

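SK-N-BE(2)C H3K27ac ChIP-seq was measured in 4 samples, 2 per group. The authors trimmed reads with cutadapt, aligned them to GRCh38 with BWA, merged both ChIP experiments of each group and ran MACS2 on the merged reads at a p-value of 1e-06. An input or a blacklist is not given in the sources used here. The deposited lists hold a fold enrichment (the ratio of summit to local background, pseudocount 1) and the −log10 p and −log10 q that the authors' caller gave. Depth is unknown, so intervals (95%) cover counting error only.

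Gene windows, start sites and annotations came from GENCODE release 44. The pileup was solved from fold enrichment and −log10 p under a Poisson model, and was whole within 0.001 for 99.6% of the peaks of each list. Shared peaks overlapped by at least 1 bp, and pairs were mutual best overlaps by fold enrichment. Ratio intervals are exact conditional binomial, and a ratio was counted past 1.5-fold (0.58 on the log2 scale). The recovery and overlaps were tested on simulated data. With 1 pooled list per group no test was run. Named genes were all 7 members and list genes with a promoter peak in only 1 list. The 3 highest partner promoters and promoters covered by member peaks were named as well. *HAND1*, *HAND2*, *LYL1*, *GATA3*, *LHX8* and the ratios of *MYCN* and *TBX2* were chosen after their values were seen. Members, lists and motifs were chosen with earlier results of these data known. RefSeq promoter sequences were held for *ISL1*, *LMO1*, *LMO3*, *LMO4* and *LDB1*. Python 3.11.15, numpy 2.4.6, pandas 2.3.3, scipy 1.17.1, pysam 0.24.0, samtools 1.23.1, bedtools 2.31.1 and matplotlib 3.10.9 were used.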

Additional observations from a re-analysis of the deposited data

How the results depend on the processing

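No paired analysis was possible because each group is held as 1 merged peak list, and for the same reason no replicate could be left out. Of 167 values under other settings, 158 moved by less than a factor of 1.5 or their interval, 9 moved further and 0 reversed a ratio past 1.5-fold. For the median of the pairs that interval was drawn from the ranked pairs (0.019 to 0.48). The values are not independent, as the start-site values of *ISL1*, *LMO1*, *LMO2* and *LMO4* repeat those of their highest peaks. A reversal could be scored only where the main ratio was past 1.5-fold. The peak ratio stayed between 0.857 and 1.04 and the covered ratio between 0.953 and 1.08. With an overlap of at least 50% of both peaks, the shares with a partner were 62.1% in sgCtrl and 64.3% in sgSNHG1. The share over all peaks was not computed at that overlap. The median ratio of the shared pairs, 0.14, depended on the centring: it was 0.016 relative to pairs of the same kind, 0.016 relative to pairs within 10 Mb, −0.060 without centring and, in an alternative chosen after seeing the data, 0.011 relative to the lowest background of each list. Pairs past 1.5-fold upward then numbered 2, 2, 1 and 2, and 0 with fold enrichment, and the sole one downward was at *LMO1* without centring. The *ISL1* and *LDB1* start-site ratios lay between 0.47 and 0.55 under those centrings. Pooled lists and unknown depth limit every comparison to a description of the lists, and values per sample were not analysed here.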
